A study of Mus musculus with 2 samples.

Results

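The keratin family was examined in mouse mammary basal cells cultured in 3D with and without TNF-α, a cytokine of inflammation. Its members were all genes of the count table named Krt with a number and at most 1 letter, which gave 54 of the 49492 genes, and the keratin-associated Krtap genes were left out. Primary cells were taken from mammary glands of wild type adult females, sorted as lineage-negative cells with CD24 and high CD29, and embedded in matrix gel in medium with EGF and insulin-transferrin-selenium. The control group received nothing further and the TNF-α group received recombinant mouse TNF-α at 10 ng/mL, both for 10 days, and the sources used here do not say how many animals were pooled. Each condition had 1 library, so no difference below has a replicate check, and what TNF-α did cannot be told apart from chance differences between both cultures.

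Keratins are the intermediate filament proteins of epithelial cells. A filament is built from pairs of 1 type I (acidic) and 1 type II (basic to neutral) chain, and cell types and layers of an epithelium can be told by the pairs they make. In the mammary gland, Krt5 and Krt14 mark the basal, myoepithelial layer and Krt8, Krt18 and Krt19 mark luminal cells. Krt1 and Krt10 are made by suprabasal cells of the epidermis as they leave the basal layer, and Krt6a, Krt16 and Krt17 are made in skin appendages and in stressed or wounded epidermis.

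The libraries held 44462275 counts (control) and 53487087 counts (TNF-α). By TMM the effective size of the TNF-α library was 1.20 times that of the control. Log2 ratios of TNF-α to control were taken with a prior count of 2. A call of higher or lower required a ratio past 2-fold and a 95% interval of the counts that left out no change. The intervals below cover counting error only, because with 1 library per condition the spread between cultures was not measured. Reads made by PCR are not separate molecules, so where present they leave the intervals too narrow even for counting error. In the control library 2172 genes had exactly 2 counts and 618 had 1, and if both ends of a pair were counted the intervals are wider than those given (for Krt10, -4.93 to -4.35 in place of -4.84 to -4.43). Levels of different genes are compared as RPKM, which divides the scaled count by the gene's summed exon length, and CPM is the scaled count without that division. The labelled cell type was checked against lists of markers, which were chosen with earlier results of these data known. The authors' paper describes such cultures as colonies or organoids formed from basal cells. Its flow cytometry of control colonies in a co-culture experiment found mostly luminal cells. With TNF-α, the paper reports a larger share of basal cells. All 8 basal or myoepithelial markers, Krt5 and Krt14 among them, were detected and summed to 11771 CPM in the control and 10770.5 CPM with TNF-α. Without Krt5 and Krt14 the sum was 4160 CPM in the control and 3147 CPM with TNF-α. The markers other than keratins included the smooth muscle genes Acta2 (44950 and 46821 counts) and Myh11 (107035 and 89485 counts). All 12 luminal markers were detected as well, at 4479.8 and 3650.4 CPM in sum, and at 1645 and 1444 CPM without the 3 keratins among them. Epcam made up 777 and 953 CPM of that last sum. The 9 luminal markers that are not keratins had a median log2 ratio of -0.95, and only 2 lay above 0, Epcam and Csn3. The 8 leukocyte markers summed to 8.32 and 6.54 CPM, with Cd3e at 0 in both libraries and Adgre1 at 0 in the control. The 4 endothelial markers summed to 7.07 and 6.67 CPM, and the 5 fibroblast markers to 372.9 and 406.5 CPM. Of these 17 leukocyte, endothelial and fibroblast genes, Dcn alone was called, with 184 counts in the control and 582 with TNF-α. The part of other cell types in the keratin results was not tested.

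Krt14 and Krt5 of the basal layer and Krt6a, Krt16 and Krt17 of stressed epidermis were abundant and were not called. Of the 6 suprabasal epidermal keratins 4 were lower with TNF-α, as were Krt79, outside that group, and Krt15 of the basal layer. Of the 54 members, 7 had no count in either library, 10 had 1 to 9 counts in sum and 37 had at least 10 counts and were compared. Among these 37, 11 were called lower with TNF-α, 2 were called higher and 24 were not called. Krt10, Krt1, Krt83, Krt79, Krt82, Krt77, Krt78, Krt32, Krt4, Krt80 and Krt15 were lower, and Krt27 and Krt73 were higher. In the whole table, the same rule called 5.89% of 20771 genes lower and 7.39% higher. Among genes with at least 200 counts it called 2.87% of 13609 lower and 4.01% higher, and of the 24 keratins with that many counts 9 were called lower and 0 higher. Krt82, with 16 counts in the control and 2 with TNF-α, and Krt27, with 0 and 18, reached 10 counts through the library in which they were high. So did Krt73, with 4 and 49, so both genes called higher are of this kind. The median log2 ratio was -0.40 over the 37 keratins compared and 0.0038 over all genes compared. Because the libraries are bulk, fewer cells of a type and less RNA per cell cannot be told apart for any of these genes.

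**Figure D1:**
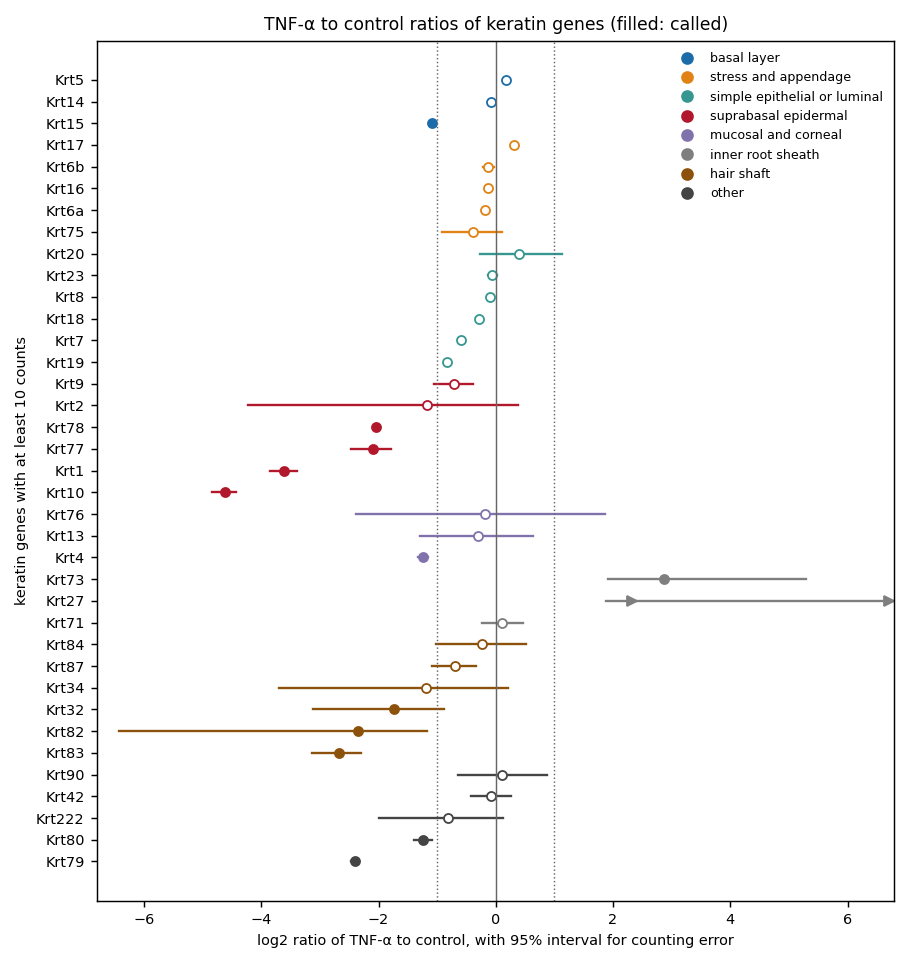
Log2 ratio of TNF-α to control on the x axis for the 37 keratin genes with at least 10 counts, 1 per row, coloured by group, with lines for the 95% interval of counting error and dotted lines at 2-fold. Filled symbols are called. The triangle on the row of Krt27 marks its ratio against a floor of 3 counts, because its control count was 0, and its interval begins below the triangle and has no upper end. The suprabasal epidermal genes Krt10, Krt1, Krt77 and Krt78 lie left of the dotted line, and Krt5, Krt14, Krt6a, Krt16, Krt8 and Krt18 lie near 0.

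The pair of the basal layer, Krt14 and Krt5, was at a similar level in both libraries. Krt14 (type I, chr11:100203162-100207548) had 229766 counts in the control and 259922 with TNF-α. Per length it was the most abundant keratin in both, at 2933 and 2771 RPKM, which placed it at rank 7 and rank 8 among all genes of the table. Its log2 ratio was -0.08 (95% interval -0.09 to -0.07). Krt5 (type II, chr15:101707070-101712891), the partner of Krt14, had 109438 and 146872 counts, or 1121 and 1257 RPKM. It lay slightly higher in the TNF-α library, with a log2 ratio of 0.16 (0.15 to 0.18). Krt15, a type I keratin of basal cells that is also enriched in stem cells of the hair follicle, differed from this pair. Krt15 counts numbered 24471 in the control and 13796 with TNF-α, and the gene was called lower at -1.09 on the log2 scale (-1.12 to -1.06). This is a 2.12-fold lower level, just past the threshold, and the interval lies wholly below those of Krt5 and Krt14.

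The keratins of stressed epidermis and appendages were led by Krt6a, Krt16 and Krt17, which were abundant in both libraries, and 0 of the 5 genes were called. Krt6a (type II, chr15:101689932-101694307) had 76273 and 80591 counts and ranked 3 among keratins per length in both libraries, at 758.6 RPKM in the control and 669.5 with TNF-α. Its log2 ratio was -0.18 (-0.19 to -0.17). Krt16, its type I partner in wounded epidermis, had 40902 and 44474 counts and a log2 ratio of -0.14 (-0.16 to -0.12). Krt17, a type I keratin of the hair follicle that is induced in injured skin, had 16921 counts in the control and 25108 with TNF-α. Its log2 ratio of 0.31 (0.28 to 0.34) was the highest of the 24 keratins with at least 200 counts, and it stayed under the 2-fold threshold. Krt6b had 1805 and 1976 counts with a log2 ratio of -0.13, and Krt75, a keratin of the hair follicle companion layer, had 72 and 65. Some of these counts are uncertain, because parts of the sequences also occur in other genes. Of the 100-base windows of Krt6a transcripts in GENCODE M21, 42.9% also occur in transcripts of other genes, and 26.6% occur in Krt6b. The share found in any other gene was 30.6% for Krt6b, 24.3% for Krt16 and 2.78% for Krt14. For Krt16 the main partner was Gm11597, which is not a member of the family, with 21.1% of windows. Antisense gene models also share 129 exon bases each with Krt5, Krt6a and Krt6b. These were Gm44323 over Krt5 (17937 and 22962 counts), Gm44342 over Krt6a (8414 and 8094) and Gm44383 over Krt6b (236 and 208).

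The keratins of simple and luminal epithelium ranged from a log2 ratio of -0.84 for Krt19 to 0.40 for Krt20, and 0 of the 6 were called. Krt8 (type II, chr15:101996711-102004342), which pairs with Krt18 in simple epithelia, had 54056 counts in the control and 60420 with TNF-α, a log2 ratio of -0.10 (-0.12 to -0.08). In 17.1% of its 100-base windows its sequence also occurs in another gene, chiefly the pseudogene Krt8-ps. Krt18 had 28049 and 27600 counts, a log2 ratio of -0.28 (-0.31 to -0.26). Krt19, a type I keratin of luminal and progenitor cells, had 44243 counts in the control and 29694 with TNF-α. Its log2 ratio of -0.84 (-0.86 to -0.81), a 1.78-fold lower level, was not called, and its interval lies below those of Krt8 and Krt18. Krt7, a type II keratin of glandular ducts, had 10121 and 8064 counts, a log2 ratio of -0.59 (-0.63 to -0.55). Its RPKM of 32.2 and 21.4 rests on a summed exon length of 7055 bases in the table, against a median of 1892 over the 54 keratins. Krt23 was nearly level, with 2395 and 2751 counts and a log2 ratio of -0.06 (-0.14 to 0.02). Krt20, a keratin of gut and urothelial cells, had 30 and 48 counts, and its interval of -0.27 to 1.13 includes no change. Among the 9 luminal markers that are not keratins, the hormone receptor genes Pgr, Esr1 and Prlr were called lower (log2 ratios of -1.54, -1.48 and -1.15). The milk protein gene Csn3 was called higher (1.88). Over all genes compared, 5.89% were called lower and 7.39% higher.

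**Figure D2:**
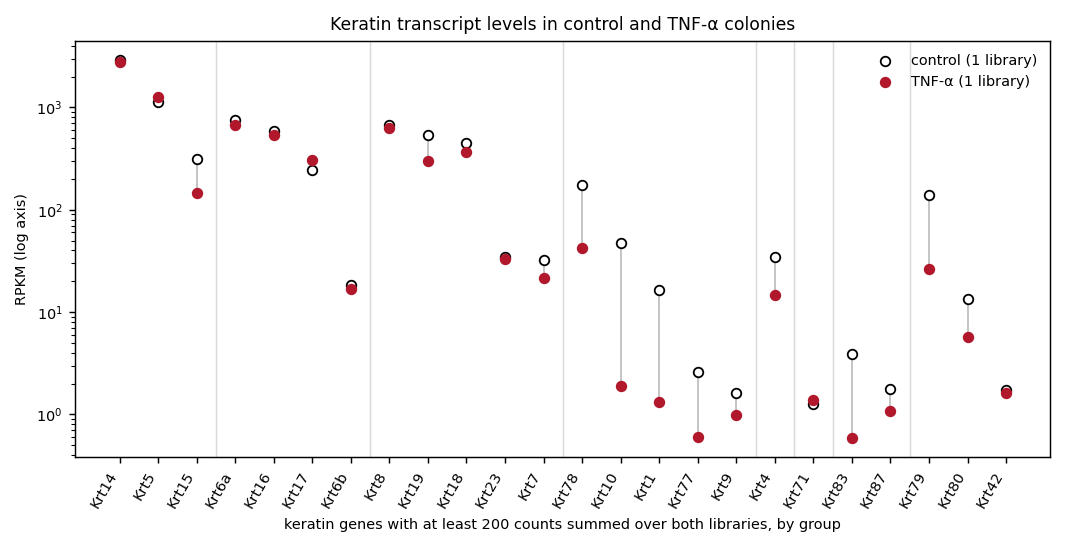
RPKM on a log axis for the 24 keratin genes with at least 200 counts, with the control library as open circles and the TNF-α library as red circles, grouped by role and ordered within a group by the control level. Krt14 stands highest at 2933 and 2771 RPKM, and the widest gap is that of Krt10, from 47.1 to 1.90 RPKM.

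The suprabasal epidermal keratins included both of the largest decreases of the family, in Krt10 and Krt1. All 6 genes had ratios below 0, with a median log2 ratio of -2.07, and 4 were called lower. Krt10 (type I, chr11:99385254-99389364), the main type I keratin of the spinous layers, had 4433 counts in the control and 214 with TNF-α. This was a 24.6-fold lower level, with a log2 ratio of -4.62 (-4.84 to -4.43). An antisense gene model, Gm11940, shares 146 exon bases with Krt10 and had 1055 and 37 counts, and reads of the 2 genes cannot be told apart without strand. Krt1 (type II, chr15:101845428-101850786), the partner of Krt10, had 1775 and 172 counts. Its level was 12.2-fold lower, with a log2 ratio of -3.61 (-3.86 to -3.40), and no exon of another gene overlaps it in the table. Krt77, a type II chain of the suprabasal epidermis and eccrine sweat ducts, had 341 and 94 counts, a log2 ratio of -2.09 (-2.46 to -1.79). Krt78, a type II keratin of stratified epithelia, was the most abundant of the group. Its 26848 counts in the control and 7767 with TNF-α correspond to 175.4 and 42.4 RPKM, at a log2 ratio of -2.05 (-2.09 to -2.01). Krt9, the type I keratin of palm and sole epidermis, had 186 and 135 counts, a log2 ratio of -0.71 (-1.05 to -0.39) that was not called. Krt2, a keratin of the upper epidermis, was at the limit of detection with 8 and 3 counts.

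Outside the epidermal group, Krt79 had the largest decrease among the abundant keratins. Krt79 (type II, chr15:101929332-101940324), known from the hair follicle infundibulum and sebaceous duct, had 12988 counts in the control and 2922 with TNF-α. The log2 ratio was -2.41 (-2.47 to -2.35), a 5.32-fold lower level. Krt4 (type II, chr15:101918536-101924735), the suprabasal keratin of mucosal epithelia, had 3314 and 1671 counts and was called lower at -1.25 (-1.33 to -1.16). Its type I partner Krt13 was detected with 21 and 20 counts only, and the corneal Krt12 with 1 and 6. Krt80, a type II keratin found in many epithelia, had 1068 and 539 counts and was called lower at -1.24 (-1.40 to -1.10). Krt42, a type I keratin of the nail unit, had 137 and 154 counts, a log2 ratio of -0.09 (-0.43 to 0.25). Krt222 (22 and 14 counts), Krt90 (28 and 36) and Krt76 (5 and 5) were rarely counted and not called.

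Promoter sequences are shown for the 4 lower suprabasal and infundibular genes that have one in the RefSeq table (Krt10, Krt77, Krt78 and Krt79), beside those of Krt5 and Krt8, whose levels were similar in both libraries. The set of RefSeq starts used here covered 36 of the 54 members on GRCm38.p6, and Krt1, Krt4, Krt15, Krt80 and Krt83 were not among them. Each run is the 250 bases before that start, 5′ to 3′ on the gene's strand, with capitals for matches to any of 5 motifs searched on both strands. The first was the TATA box, searched as TATAAA. The motif of AP-1, a factor of the stress response and of keratinocyte differentiation, was searched as TGANTCA. That of AP-2, a factor of epidermal genes, was searched as GCCNNNGGC. The grainyhead factors of epithelial cells were represented by AACNGGTT, and NF-κB, which signals downstream of TNF-α receptors, by its consensus.
Krt10, chr11:99389365-99389614, minus strand: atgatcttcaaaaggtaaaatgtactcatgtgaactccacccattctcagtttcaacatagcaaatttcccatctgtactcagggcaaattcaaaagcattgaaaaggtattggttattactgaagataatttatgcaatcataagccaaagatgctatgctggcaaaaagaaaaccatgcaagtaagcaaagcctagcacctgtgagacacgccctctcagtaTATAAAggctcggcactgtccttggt
Krt77, chr15:101869706-101869955, minus strand: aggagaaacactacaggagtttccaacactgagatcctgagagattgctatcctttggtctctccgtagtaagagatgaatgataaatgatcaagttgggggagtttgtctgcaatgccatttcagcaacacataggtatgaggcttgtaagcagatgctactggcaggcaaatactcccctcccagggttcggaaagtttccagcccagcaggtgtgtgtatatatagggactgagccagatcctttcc
Krt78, chr15:101954288-101954537, minus strand: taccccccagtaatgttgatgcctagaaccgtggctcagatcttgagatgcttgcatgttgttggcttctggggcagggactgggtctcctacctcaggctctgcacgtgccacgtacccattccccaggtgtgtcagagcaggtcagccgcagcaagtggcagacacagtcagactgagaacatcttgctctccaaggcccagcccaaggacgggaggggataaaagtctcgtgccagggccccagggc
Krt79, chr15:101940325-101940574, minus strand: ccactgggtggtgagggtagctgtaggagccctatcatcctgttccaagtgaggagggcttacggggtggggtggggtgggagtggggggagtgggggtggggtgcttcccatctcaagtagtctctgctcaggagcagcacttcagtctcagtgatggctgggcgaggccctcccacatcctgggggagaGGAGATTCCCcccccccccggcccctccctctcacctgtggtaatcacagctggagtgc
Krt5, chr15:101712906-101713155, minus strand: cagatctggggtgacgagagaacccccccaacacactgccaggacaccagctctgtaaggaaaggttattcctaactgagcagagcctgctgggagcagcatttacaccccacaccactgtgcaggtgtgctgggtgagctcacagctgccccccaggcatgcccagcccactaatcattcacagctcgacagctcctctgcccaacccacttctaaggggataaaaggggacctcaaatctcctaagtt
Krt8, chr15:102004343-102004592, minus strand: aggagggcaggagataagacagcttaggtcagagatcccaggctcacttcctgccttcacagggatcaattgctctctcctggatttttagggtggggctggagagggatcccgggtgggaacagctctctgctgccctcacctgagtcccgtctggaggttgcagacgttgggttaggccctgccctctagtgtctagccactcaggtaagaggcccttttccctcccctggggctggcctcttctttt
Krt10 holds a TATA box that begins 26 bases before the start. Krt79 holds 1 match to the NF-κB consensus that begins 59 bases before the start. The other windows shown hold no match to these letters. Among all keratin windows, those of Krt14, Krt18 and Krt23 also hold an NF-κB match, and none of these genes was called. Over the 37 keratin windows, 17 held TATAAA (45.9%), against 12.4% of all 32851 windows in the table. For the other motifs the numbers were 4 of 37 against 7.25% for NF-κB, 2 of 37 against 6.75% for AP-1, 5 of 37 against 13.7% for AP-2 and 0 of 37 against 1.79% for grainyhead factors. A match describes these letters only and says nothing of binding.

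Most hair shaft keratins were rarely counted. Of 15 hair shaft genes in the table, 4 had no count (Krt33a, Krt33b, Krt39 and Krt81), 5 had 1 to 9 counts (Krt31, Krt35, Krt36, Krt40 and Krt86) and 6 were compared. Krt83, a type II hair keratin, had 318 counts in the control and 58 with TNF-α, a log2 ratio of -2.67 (-3.14 to -2.31). Krt32 had 32 and 10 counts and was called lower at -1.73 (-3.13 to -0.88), and it shares 249 exon bases with the antisense model Gm11571, at 29 and 5 counts. Krt82 had 16 and 2 counts, a log2 ratio of -2.35 with a wide interval of -6.42 to -1.17. Krt87 had 144 and 105 counts and a log2 ratio of -0.70 (-1.09 to -0.34), Krt84 had 31 and 31, and Krt34 had 10 and 4. Both keratins called higher belong to the inner root sheath, the layer that moulds the growing hair. Krt73 had 4 counts in the control and 49 with TNF-α, a log2 ratio of 2.88 (1.91 to 5.29). Krt27 had 0 and 18 counts and was at least 5.01-fold higher, against a floor of 3 counts in the control library. Krt73 and Krt27 lay below 1 CPM in each library, and Krt27 was no longer called when counts were halved. The third inner root sheath gene compared, Krt71, had 124 and 160 counts, a log2 ratio of 0.11 (-0.24 to 0.46). The inner root sheath genes Krt25, Krt26 and Krt74 had no count in either library, and Krt74 is annotated as a transcribed pseudogene. Krt28 (2 and 4 counts) and Krt72 (0 and 2) of the same layer, Krt24 (0 and 2) and Krt88 (1 and 4) stayed under 10 in sum. With 0 counts the level could still have been up to 0.0673 CPM in the control and up to 0.0562 CPM with TNF-α.

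Mouse keratin genes lie in 2 clusters, with 27 members each on chromosomes 11 and 15. Chromosome 11 holds type I genes and chromosome 15 holds the 26 type II genes and Krt18. Of the 11 genes called lower, 8 were among the 26 type II members and 3 among the 28 type I members. Both totals include genes with too few counts to be compared, and a difference between the types was not tested. A stretch of neighbouring genes, picked out after its values were seen, held 5 of the 8 type II genes called lower. From Krt2 to Krt78 (chr15:101810689-101954287, 143.6 kb) the order is Krt2, Krt1, Krt77, Krt76, Krt4, Krt79 and Krt78. The 5 genes of this stretch with more than 200 counts were all called lower, and Krt2 (8 and 3 counts) and Krt76 (5 and 5) were too rarely counted to be placed. The next keratin gene, Krt8, begins 42.4 kb beyond Krt78, and neither it nor Krt18 beside it was called. On chromosome 11, Krt10 lies between Krt28, with 2 and 4 counts, and Krt12, with 1 and 6. Krt15 and Krt19 are neighbours there, with log2 ratios of -1.09 and -0.84.

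**Figure D3:**
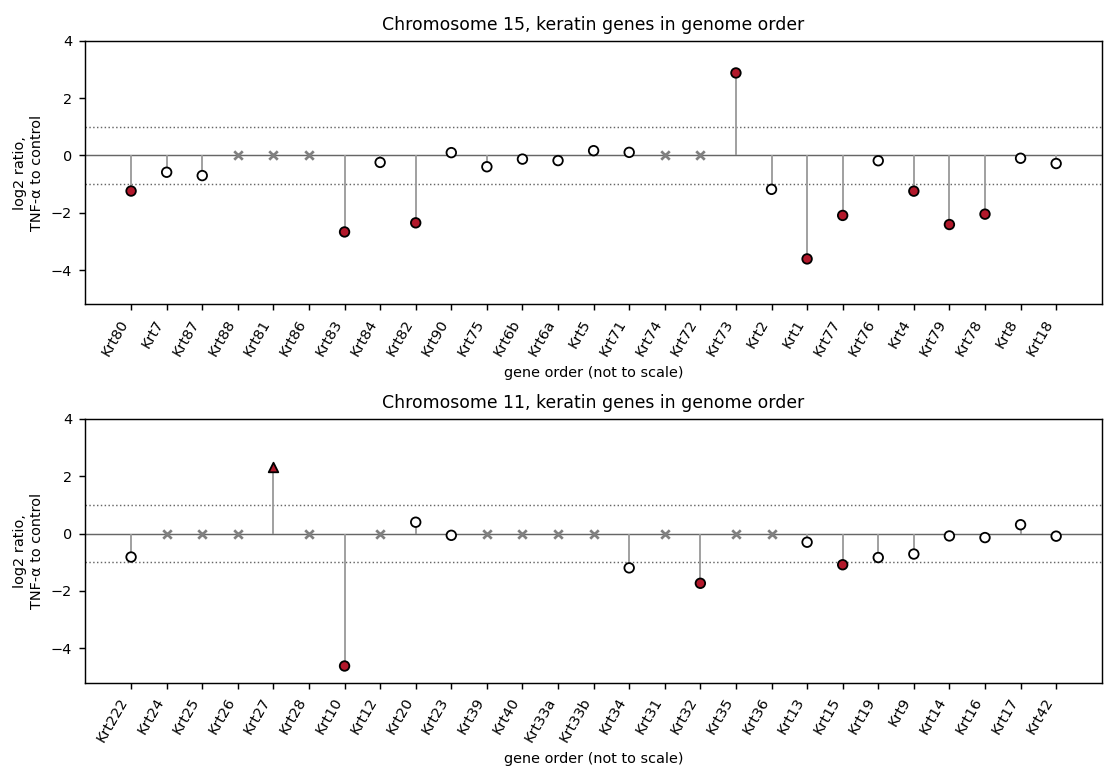
Log2 ratio of TNF-α to control on the y axis for the keratin genes of chromosome 15 (top) and chromosome 11 (bottom) in genome order, with red symbols for called genes, open symbols for genes not called, crosses for members with fewer than 10 counts, a triangle for the ratio of Krt27 against a floor of 3 counts and dotted lines at 2-fold. On chromosome 15 the genes Krt1, Krt77, Krt4, Krt79 and Krt78 stand below the lower dotted line beside Krt8 and Krt18 near 0.

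Keratin genes took 690412 counts in the control library, 1.55% of all counts (exact binomial 95% interval 1.549% to 1.556%). With TNF-α they took 715587 counts, or 1.34% (1.335% to 1.341%). In RPKM the family summed to 8138 in the control and 7148 with TNF-α. The simple and luminal keratins accounted for 372.0 RPKM of this difference, the suprabasal epidermal keratins for 195.9, the basal layer keratins for 190.6 and the keratins in no other group, chiefly Krt79, for 120.8. The make-up of the family differed accordingly. Keratins of the basal layer gave 53.6% of all keratin RPKM in the control and 58.4% with TNF-α, and those of stress and appendages 19.8% and 21.3%. Simple and luminal keratins gave 21.2% and 18.9%. The share of the suprabasal epidermal group was 2.99% in the control and 0.660% with TNF-α. The 4 most abundant keratins, which were Krt14, Krt5, Krt6a and Krt8 in both libraries, gave 67.4% and 74.5%.

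**Figure D4:**
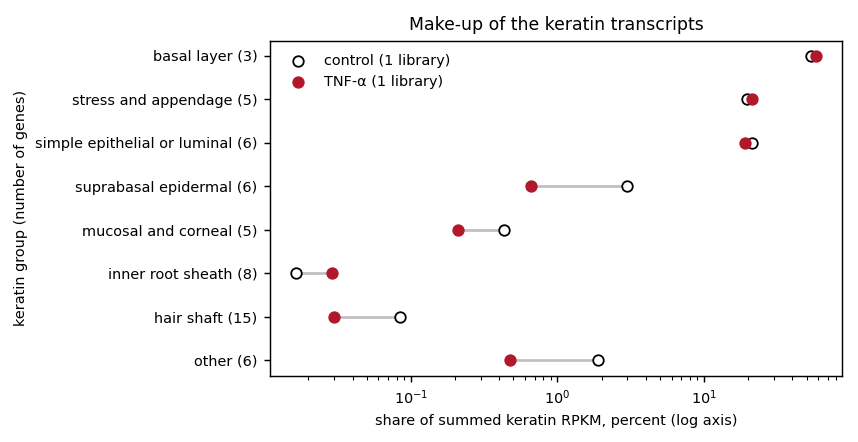
Share of the summed keratin RPKM in percent, on a log axis, for the 8 groups of keratins with the number of genes in each, with the control library as open circles and the TNF-α library as red circles. The basal layer group holds 53.6% and 58.4%, and the suprabasal epidermal group 2.99% and 0.660%.

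Filaments need both chain types, so the balance of the types and of known pairs was compared between the libraries. Summed over the family, type II RPKM was 0.582 of type I in the control and 0.602 with TNF-α. Within pairs, the ratio of Krt5 to Krt14 was 0.382 (95% interval 0.380 to 0.385) in the control and 0.454 (0.451 to 0.457) with TNF-α. Krt8 to Krt18 was 1.49 (1.47 to 1.52) and 1.70 (1.67 to 1.72). Krt6a to Krt16 was 1.29 (1.28 to 1.31) and 1.26 (1.24 to 1.27). The pair that differed most in proportion was Krt1 to Krt10, at 0.346 (0.327 to 0.366) and 0.695 (0.565 to 0.853), where Krt10 had the larger decrease. Krt7 to Krt19 was 0.0601 and 0.0714, and Krt6b to Krt17 was 0.0743 and 0.0548. For Krt4 and Krt13 the ratio was 135 in the control (88.0 to 218) and 71.4 with TNF-α (46.1 to 117), so Krt4 stood without a matching amount of its known partner in both. The ratios use the summed exon lengths of the table, and an error in a length moves a pair's ratio alike in both libraries.

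Genes that anchor or regulate keratins lay closer to no difference than the suprabasal keratins did. The 12 linker genes in the table tie keratin filaments to desmosomes, hemidesmosomes or other cytoskeleton, and they had a median log2 ratio of -0.38 with 11 of 12 below 0. Only Evpl, which encodes the cornified envelope protein envoplakin, was called, with 12174 counts in the control and 7280 with TNF-α, and its log2 ratio lay at the threshold itself (interval -1.04 to -0.96). The highest was the desmosomal plakophilin gene Pkp2 at 0.28, and the desmoplakin gene Dsp lay at -0.47 with 262514 and 227340 counts. Of 21 transcription factors known to act on keratin genes, Notch1, a receptor that promotes suprabasal differentiation of epidermis, was the one called. For neither list does 1 call stand out from the 5.89% of all genes called lower. Notch1 stood at 13875 counts in the control and 7502 with TNF-α, and its log2 ratio was -1.15 (-1.19 to -1.11). The highest was Rbpj, the DNA-binding partner of Notch receptors, at 0.31 (3867 and 5742 counts). Trp63, the basal regulator of Krt5 and Krt14, was level with 9329 and 11400 counts, a log2 ratio of 0.03 (-0.01 to 0.07). Klf4, a factor of late epidermal differentiation, lay at -0.39 (2376 and 2171 counts).

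Among 8 squamous markers outside the keratin family, 5 of the 7 with at least 10 counts were called lower with TNF-α and 0 higher. The same rule called 5.89% of all genes compared lower and 7.39% higher. The marker list was chosen with earlier results of these data known, so its share cannot be weighed against that of all genes. The cornified envelope gene Ivl had 6467 counts in the control and 1341 with TNF-α, a log2 ratio of -2.53, and the filaggrin gene Flg had 440 and 32, a log2 ratio of -3.95. Calm4 (208 and 16 counts), Krtdap (39 and 10) and Spink5 (5055 and 2954) were the others called. Sbsn lay at -0.78 with 13423 and 9370 counts. Lor, which encodes the main protein of the cornified envelope, had 15 and 12 counts, and Cnfn had 0 and 2. The non-keratin basal or myoepithelial markers ranged from -1.19 for Oxtr, the oxytocin receptor gene (10762 and 5630 counts), to 0.18 for Mylk (7906 and 10722 counts). Whether these markers and the keratins differed in the same cells was not tested.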

How the data were processed

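The authors deposited raw read counts per gene for 1 control and 1 TNF-α library, without normalization, with exon coordinates, strand and summed exon length. The submitters' processing notes name GRCm38 and mm10. The aligner, counting tool and use of strand were not given in the sources used here. Libraries were scaled by TMM (edgeR 4.0.16, R 4.3.3) over genes with at least 10 summed counts. CPM, RPKM and log2 ratios (prior count 2) were computed here with Python 3.11.15, scipy 1.17.1, pandas 2.3.3 and numpy 2.4.6, and figures with matplotlib 3.10.9. A gene was called when its ratio passed 2-fold and its 95% Clopper-Pearson interval left out no change. With 1 library per condition no quasi-likelihood test could be fitted, no p-value is given, and spread between cultures was not measured. In simulated libraries of 20711 genes with counting error only, 200 genes were changed 4-fold, all drawn from those with at least 200 counts. The calls recovered 200 of these 200 and made 136 false calls, 0 of them in genes with at least 200 counts. Recovery of genes with fewer counts was not simulated. Alternatives were DESeq2 (1.42.0) size factors and other scalings, filters, prior counts, folds and depths. Members with at least 200 counts, called members, and the extremes of each list are named. The members and lists were chosen with earlier results of these data known.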

Additional observations from a re-analysis of the deposited data

How the results depend on the processing

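No paired analysis was possible because there was 1 control and 1 TNF-α library, which also left no replicate to leave out. With scaling by upper quartile, by total counts, by totals without keratin reads or by DESeq2 size factors, and with prior counts of 0.5 and 5, the same 11 keratin genes were called lower and the count called higher stayed at 2. With at least 1 CPM in a library the count of keratin genes called higher was 0, and it was 1 with halved counts, the reading in which both ends of each pair were counted, and 1 after thinning to 0.25 of the shallower depth. In these settings Krt27 and Krt82 no longer reached the minimum count or level, and Krt32 and Krt73 were also under 1 CPM. Among all genes, 836 were called higher and 658 lower with at least 1 CPM, 2522 and 2130 with a fold of 1.5, and 921 and 696 after thinning. With a fold of 1.5 the count of keratin genes called lower rose from 11 to 15. The genes gained were Krt19, Krt7, Krt87 and Krt9, so the lack of calls among luminal keratins depends on the threshold. The ratio of type II to type I keratins was 0.763 in the control and 0.771 with TNF-α when counts were not divided by length. Without mitochondrial and ribosomal RNA genes the keratin share of counts was 1.57% in the control and 1.35% with TNF-α. Over the 6 alternatives of scaling and prior count, no log2 ratio changed sign among 28 keratin genes, those called or with at least 200 counts. Krt14 alone left its counting interval, which ends at -0.0900. Its log2 ratio was -0.0908 with upper quartile scaling and -0.0918 with totals without keratin reads. The ratio of Krt82 ranged from -2.95 to -1.72, its ends set by the prior count, and that of Krt27, fitted against 0 counts, ranged from 2.11 to 5.09 and is no bound.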
